A study of Mus musculus with 4 samples.

Results

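The genes described here carry inhibitory transmission by GABA and glycine: receptor subunits, synthetic enzymes, transporters, chloride carriers and synaptic scaffold proteins. They were chosen by name as a list of 29 genes, out of the 21883 features in each deposited table, and all 29 were listed. A member was counted as measured in a tissue at 1 FPKM or more in either library of that tissue, which held for 16 members in DRG and 26 in dorsal cord. FPKM scales the fragments of a gene by its transcript length and by the depth of the library, so levels of different genes are compared per length. Gabra6, Gabrd and Gabre, which encode further GABA-A receptor subunits, were under this level everywhere. The members just inside and just outside it were Gabrb1 (1.80 FPKM in its higher library) and Slc12a5 (0.944) in DRG, and Gabrq (2.22) and Gabre (0.659) in cord.

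The samples came from wild-type (WT) young adult male mice of the strain labelled BL6/C57, in which the left sciatic and femoral nerves had been transected 7 days earlier. Lumbar dorsal root ganglia (DRG, the sensory ganglia) of levels L4 to L6 and lumbar dorsal spinal cord (here cord) were each sampled ipsilaterally and contralaterally. The 4 groups hold 1 library each, and the labels do not say whether a library pools mice. Contralateral tissue is from operated mice and no sham or unoperated group is analysed here.

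GABA is made from glutamate by glutamate decarboxylase, and both GABA and glycine are loaded into synaptic vesicles by one carrier, VGAT. GABA-A and glycine receptors are pentameric chloride channels, whereas GABA-B receptors act through G proteins. Whether an open chloride channel inhibits a neuron depends on its internal chloride, which the importer NKCC1 raises and the exporter KCC2 lowers. In the dorsal horn, local GABA and glycine neurons restrain the relay of touch and pain. Adult sensory neurons carry GABA-A receptors and, unlike most central neurons, keep a high internal chloride.

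With 1 library per group there was no replicate, no p-value was computed, and no difference below has a check against the spread between animals. Differences are given as the log2 ratio of (ipsilateral + 1) over (contralateral + 1) FPKM, and 2-fold means 1 or more in size on this log2 scale. Where an interval of a fold is given, it is a 95% interval for the plain FPKM ratio, built on the standard error that the test statistic of the authors' deposited table implies, and it leaves out variation between animals. Marks of significance and q-values are those of the authors' deposited table, which set 1 library against 1 library. Summed FPKM differed little between sides, at 442298 ipsilaterally and 431795 contralaterally in DRG and 442196 ipsilaterally and 425636 contralaterally in cord. The tissues showed their defining markers. Avil, an actin-binding protein gene of sensory neurons, was at 270.0 FPKM ipsilaterally and 272 contralaterally in DRG and under 0.1 in both cord libraries, and Slc1a2, an astrocyte glutamate transporter gene, was at 628 FPKM ipsilaterally and 721 contralaterally in cord.

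The 2 tissues held different sets of members. In cord, the levels ran up to 228 FPKM for Gabbr1, a GABA-B receptor subunit gene, in the ipsilateral library and 238 FPKM for Slc6a11, the GABA transporter GAT3 gene, in the contralateral library. In DRG, Gabbr1 was also at the top, at 150 FPKM ipsilaterally and 176 contralaterally. The glycine receptor beta subunit gene Glrb, the second GABA-B subunit gene Gabbr2 and the NKCC1 gene Slc12a2 followed in DRG, all between 35.4 and 60.3 FPKM in either library. The genes that make a neuron GABAergic or glycinergic (Gad1, Gad2, Slc32a1 and Slc6a5) were all under 1 FPKM in both DRG libraries. The tables were normalised separately, so levels set across tissues are approximate.

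**Figure D1:**
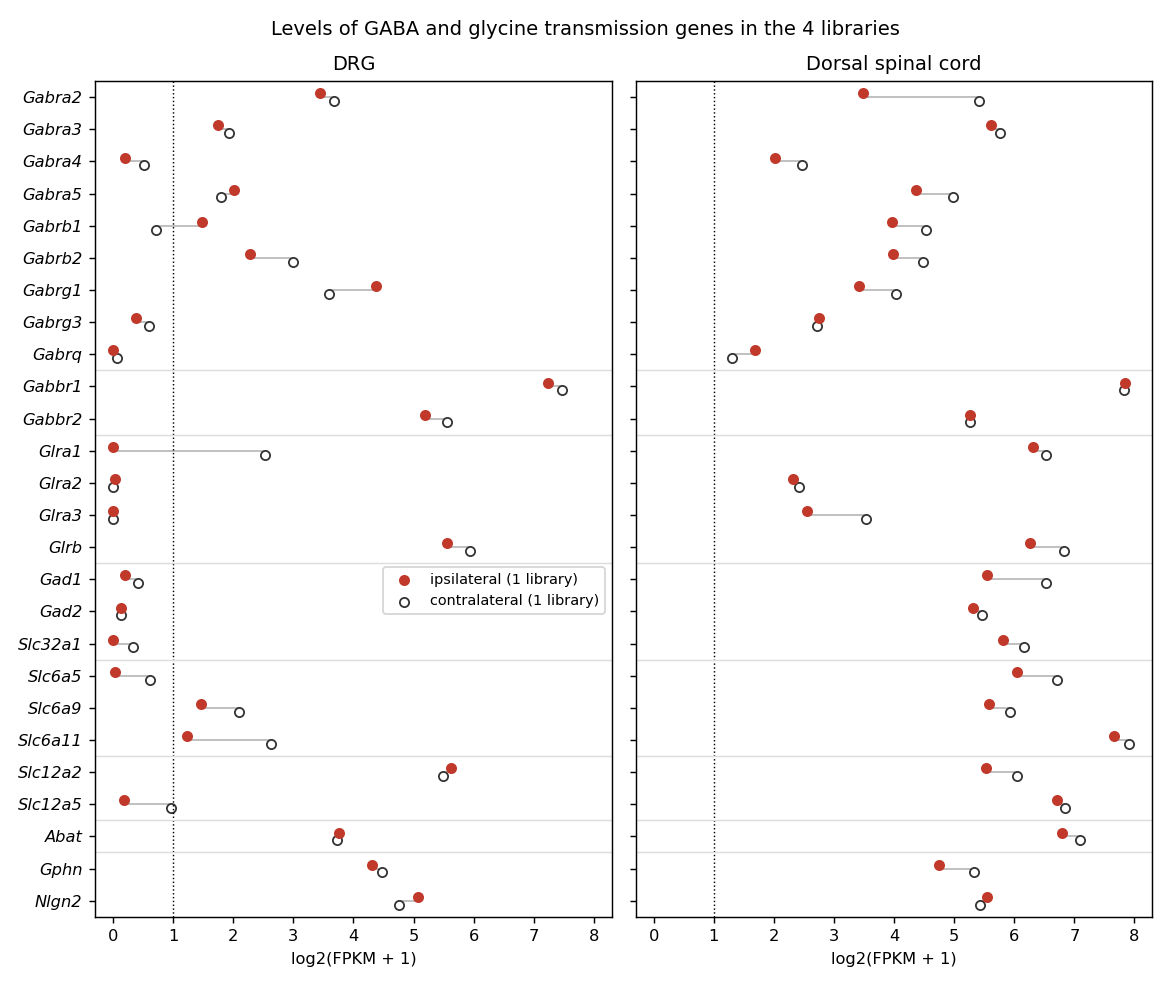
Level of each member in log2(FPKM + 1), in DRG and dorsal cord, with the ipsilateral library filled and the contralateral library open, grouped by role. The dotted line is 1 FPKM, and Gabra6, Gabrd and Gabre are not drawn. In cord most filled points lie left of the open ones, with the widest gap for Gabra2.

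In ipsilateral dorsal cord, inhibitory transmission genes were lower more often than higher, mostly by less than 2-fold. Of the 26 measured members, 21 (80.8%) had a log2 ratio below 0, beside 48.4% of the 13351 features measured in cord, and 5 were above 0, beside 51.6%. The median log2 ratio was -0.35, beside 0.02 over all measured features. Only 1 member, the GABA-A subunit gene Gabra2, was at least 2-fold lower (1.64% of all measured features were), and 0 were at least 2-fold higher (4.46% of all). With a pseudocount of 0.1 FPKM, or with the libraries rescaled to each other, the lower ones were 3, as Gad1 and Glra3 also passed. The authors' deposited table marks 3 members as significantly lower, namely Gabra2, Gad1 and Gphn, and 0 as higher, beside 1.58% and 4.64% of measured features. The interval of the fold lay wholly below 1 for 10 of 26 members and above 1 for 0, beside 7.99% and 12.4% of the features with an interval in the authors' deposited table. In bulk tissue, fewer cells of a type and less RNA per cell cannot be told apart.

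**Figure D2:**
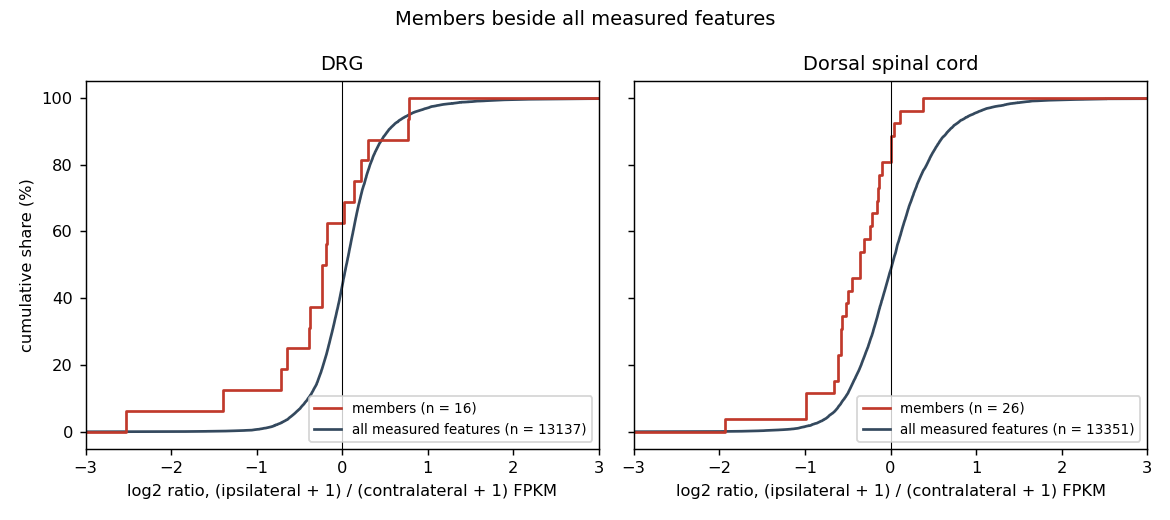
Cumulative share of the members (red) and of all measured features (blue) by log2 ratio of ipsilateral over contralateral. In cord, 80.8% of members and 48.4% of all features lie left of 0. In DRG the shares are 62.5% and 43.9%.

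Among GABA-A receptor subunits in cord, the alpha2 gene Gabra2 stood apart from its relatives. Gabra2 was at 10.1 FPKM in the ipsilateral library and 41.5 FPKM in the contralateral library, a log2 ratio of -1.93. The fold was 0.245 with an interval of 0.161 to 0.372, and q was 4.04e-08, in the authors' deposited table. Gabra3, the alpha3 gene and the highest alpha subunit of the list in cord, was at 48.0 ipsilaterally against 53.3 FPKM contralaterally (-0.15), so the sides were close. Gabra5, whose alpha5 subunit is found in receptors outside the synapse in other brain regions, was at 19.7 ipsilaterally against 30.6 FPKM contralaterally (-0.61), and Gabra4 at 3.04 ipsilaterally against 4.51 contralaterally (-0.45). Gabra2 made up 12.5% of the summed FPKM of these 4 alpha genes ipsilaterally and 31.9% contralaterally, while Gabra3 made up 59.3% ipsilaterally and 41.0% contralaterally. Within a library the Gabra2 level was 0.211 times that of Gabra3 ipsilaterally and 0.779 times contralaterally. This ratio was 0.271 times as large on the ipsilateral side, with an interval of 0.159 to 0.465 from the 2 standard errors of the authors' deposited table taken as independent.

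The other measured GABA-A subunits in cord differed less. Gabra4 and Gabrb1 overlap on opposite strands, and without a stated strand setting their reads cannot be told apart there. The beta subunit genes Gabrb1, at 14.6 ipsilaterally against 22.2 FPKM contralaterally (-0.57), and Gabrb2, at 14.9 ipsilaterally against 21.5 contralaterally (-0.50), kept nearly the same proportion to each other, 0.982 ipsilaterally and 1.04 contralaterally. Gabrg1, the gamma1 gene, was at 9.68 ipsilaterally against 15.3 FPKM contralaterally (-0.61). Gabrg3, the gamma3 gene, was at 5.73 ipsilaterally against 5.55 FPKM contralaterally (0.04), and Gabrq, the theta gene, at 2.22 ipsilaterally against 1.47 contralaterally (0.38). For Gabra5, Gabrb2 and Gabrg1 the intervals from the authors' deposited table lay below 1, with upper ends of 0.935, 0.976 and 0.923, but none is marked significant there (q from 0.136 to 0.200). In all, 7 of 9 measured GABA-A subunits were below 0 in cord (Gabra3 turned to 0.02 in the GC-centred values described further on), and their summed level was 128 FPKM ipsilaterally and 197 FPKM contralaterally, counting all 12.

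All 4 glycine receptor genes were below 0 in cord, apart from Glra2 at 0.08 once GC content was centred, and 0 were 2-fold lower. Glra1, the alpha1 subunit of the adult receptor, was at 78.9 ipsilaterally against 91.6 FPKM contralaterally (-0.21). Glrb, whose beta subunit anchors the receptor to gephyrin, was at 75.4 ipsilaterally against 112 FPKM contralaterally (-0.57), and by the authors' deposited table its fold had an interval of 0.477 to 0.943. Glra3, whose alpha3 subunit lies in the superficial dorsal horn and is a target of prostaglandin signalling, was at 4.86 ipsilaterally against 10.6 FPKM contralaterally (-0.98). Its fold of 0.459 had an interval of 0.246 to 0.854 but is not marked significant (q = 0.119) in the authors' deposited table. Glra2, mostly a developmental subunit, was at 3.99 ipsilaterally against 4.34 FPKM contralaterally (-0.10). Set against Glra1 in the same library, Glra3 stood at 0.0617 ipsilaterally and 0.116 contralaterally, and the interval of that difference, 0.262 to 1.08 times, included 1 by the standard errors of the authors' deposited table.

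The pair of glutamate decarboxylase genes differed unequally in cord. Gad1, which encodes the GAD67 enzyme of the cell body, was at 45.8 FPKM ipsilaterally and 91.8 contralaterally (-0.99), with a fold of 0.498, an interval of 0.354 to 0.701 and q = 0.00355 in the authors' deposited table. Gad2, which encodes the GAD65 enzyme of terminals, was at 38.6 ipsilaterally against 43.1 FPKM contralaterally (-0.15). Gad1 was 1.19 times the level of Gad2 ipsilaterally and 2.13 times contralaterally, a difference of 0.556 times with an interval of 0.344 to 0.899 by the standard errors of the authors' deposited table. The vesicular carrier gene Slc32a1 (VGAT) was at 54.9 ipsilaterally against 70.3 FPKM contralaterally (-0.35), and its fold interval was 0.557 to 1.09 in the authors' deposited table. The Gad1 level relative to Slc32a1 was 0.833 ipsilaterally and 1.3 contralaterally, and the interval of that difference (0.395 to 1.03 times, standard errors of the authors' deposited table) included 1.

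All 3 plasma membrane transporter genes and Abat were below 0 in cord. Slc6a5, which encodes the neuronal glycine transporter GlyT2, was at 65.4 ipsilaterally against 104 FPKM contralaterally (-0.66), and its fold interval was 0.463 to 0.861 with q = 0.0564 in the authors' deposited table. Slc6a9, which encodes the mainly glial transporter GlyT1, was at 46.7 ipsilaterally against 59.9 FPKM contralaterally (-0.35). Slc6a11, the astrocytic GABA transporter GAT3, was at 202 ipsilaterally against 238 FPKM contralaterally (-0.24). Abat, the GABA transaminase that breaks GABA down, was at 110 ipsilaterally against 136 FPKM contralaterally (-0.31). The intervals of Slc6a9, Slc6a11 and Abat all included 1 in the authors' deposited table.

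Of the 2 chloride carriers, Slc12a5 (KCC2) was at 103 FPKM in ipsilateral cord and 114 in contralateral cord (-0.14). Its fold of 0.907 had an interval of 0.626 to 1.31 in the authors' deposited table. Slc12a2 (NKCC1) was at 45.3 ipsilaterally against 65.3 FPKM contralaterally (-0.52), and its fold interval was 0.490 to 0.980 with no mark of significance (q = 0.207) in the authors' deposited table. Per length, Slc12a5 was 2.28 times the level of Slc12a2 ipsilaterally and 1.74 times contralaterally, and the interval of that difference (0.788 to 2.17 times, standard errors of the authors' deposited table) included 1.

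The GABA-B subunits were the members with the log2 ratios closest to 0 in cord before GC content was centred. Gabbr1, which binds GABA, was at 228 ipsilaterally against 227 FPKM contralaterally (0.01) and Gabbr2, which couples to the G protein, at 37.5 ipsilaterally against 37.3 contralaterally (0.01). Their intervals of the fold were 0.674 to 1.5 and 0.717 to 1.41 in the authors' deposited table, so differences inside these bounds cannot be resolved here. The ratio of Gabbr1 to Gabbr2 was 6.08 on either side. At the postsynaptic side, Gphn (gephyrin, the scaffold that clusters glycine and GABA-A receptors) was at 25.99 ipsilaterally against 39.3 FPKM contralaterally (-0.58), and its fold interval was 0.506 to 0.865 with q = 0.0448 in the authors' deposited table. Nlgn2 (neuroligin 2, the adhesion protein of inhibitory synapses) was at 45.8 ipsilaterally against 42.3 FPKM contralaterally (0.11).

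**Figure D3:**
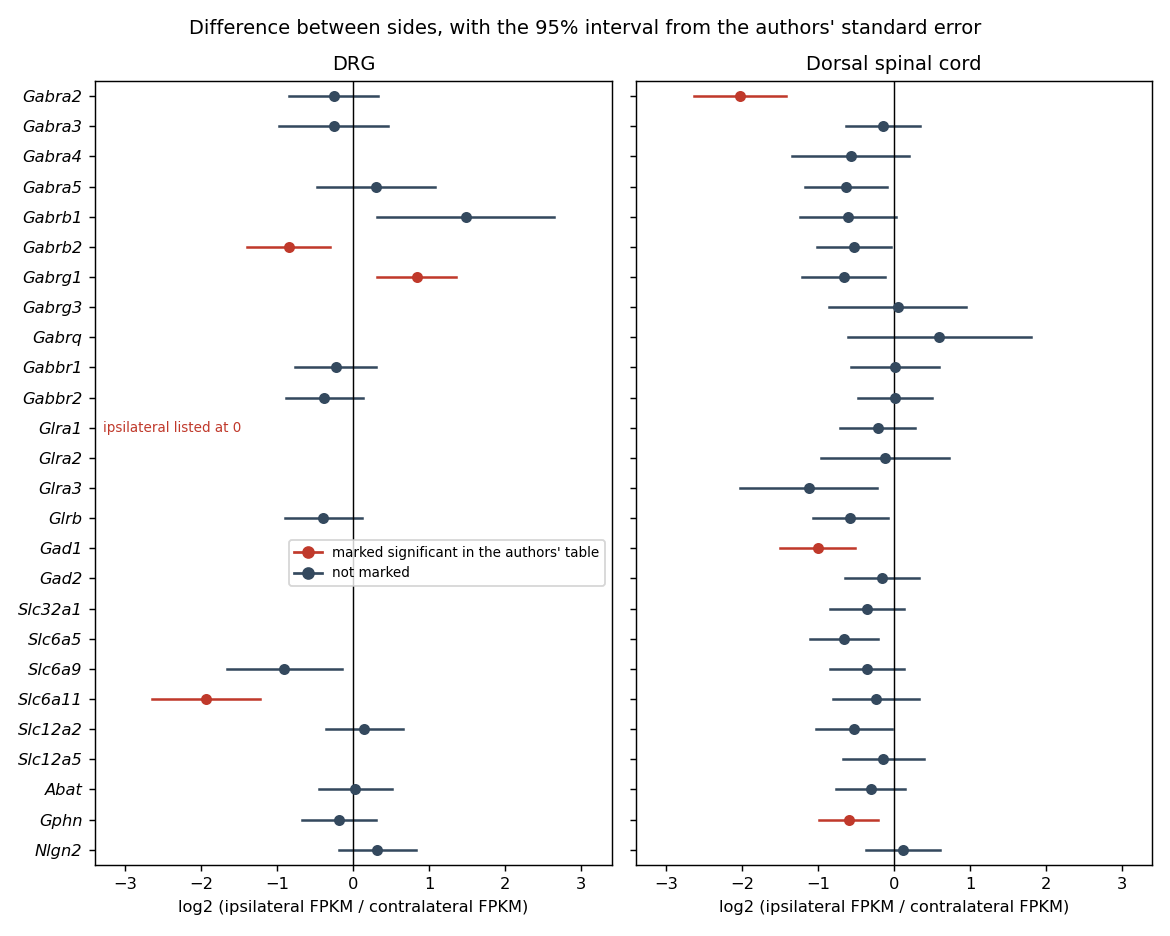
Log2 of the plain FPKM ratio, ipsilateral over contralateral, for each member measured in a tissue. Bars are 95% intervals built on the standard errors of the authors' deposited table, and red marks members called significant there. Gabra2, Gad1 and Gphn are red in cord, and Gabrb2, Gabrg1 and Slc6a11 in DRG, where Glra1 is listed at 0 ipsilaterally.

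GC content moved with the difference between sides in cord. Over 20 classes of transcript GC content, the median log2 ratio of all measured genes ran between -0.26 in the lowest class and 0.23 in the highest, whereas in DRG it was 0.10 and -0.02. The members were GC-poor, with a median of 46.1% in cord against 50.2% for all measured genes with a transcript. The 18 members under the median GC content had a median log2 ratio of -0.54, and 16 were below 0, while GC-poor genes at large had a median of -0.09 and were below 0 in 59.3% of cases. The 8 others had a median of -0.18, and 5 were below 0, while GC-rich genes at large had a median of 0.15 and were below 0 in 36.6% of cases. With the median of its GC class subtracted from each gene, the member median in cord was -0.36 and 22 of 26 were below 0, beside 50.0% of all genes. After that step Gabra2 was at -1.67, Gad1 at -1.02 and Glra3 at -0.72, and Gabbr1, Gabbr2 and Nlgn2 were at -0.10, -0.14 and -0.12, below 0 instead of above it. In DRG the centred median was -0.26, with 11 of 16 members below 0.

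**Figure D4:**
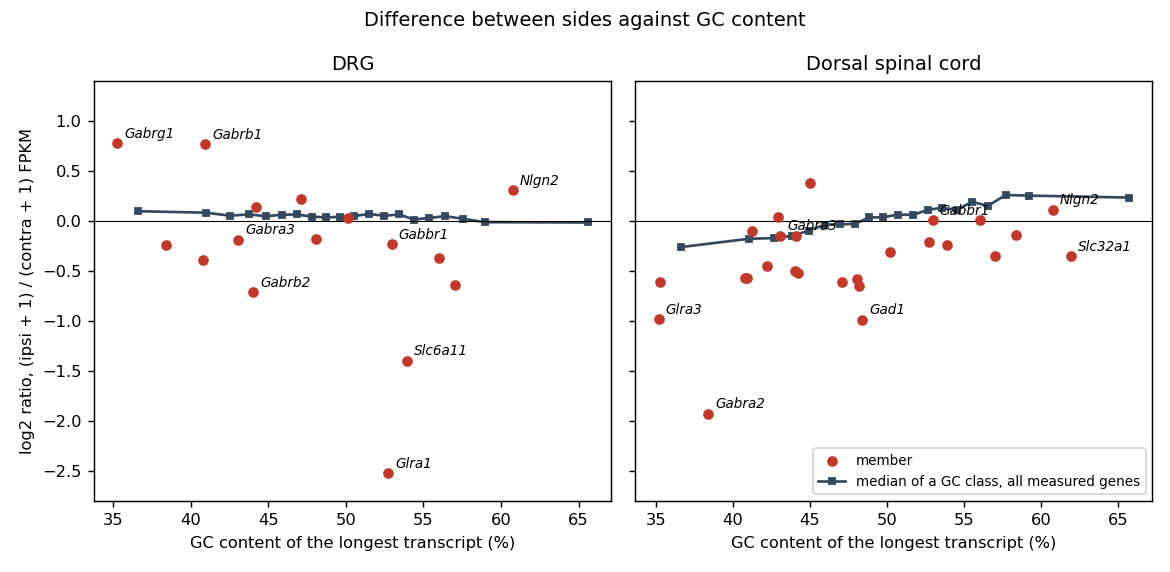
Log2 ratio of each member against the GC content of its longest protein-coding transcript, with the median of 20 GC classes over all measured genes as a line. In cord the class medians run between -0.26 at the GC-poor end and 0.23 at the GC-rich end, and 22 of the 26 members lie below the line. In DRG the line is flat by comparison.

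Cell type markers in cord did not all move with these genes. Of 9 measured markers of dorsal horn inhibitory neurons outside the list, 7 were above 0, beside 51.6% of all measured features. Of these 7, 3 are marked significantly higher in the authors' deposited table, the transcription factor gene Gbx1 and the neuropeptide genes Npy and Gal. Gbx1 (6.74 ipsilaterally against 0.358 FPKM contralaterally) and Lhx1 (1.35 ipsilaterally against 0.574 contralaterally) were measured only through the ipsilateral library, where they were high. Their place above 0 therefore follows from the filter. The 2 below 0 were Lhx5, at 1.68 ipsilaterally against 3.22 FPKM contralaterally (-0.65), and Pnoc, at 2.98 ipsilaterally against 5.21 contralaterally (-0.64). Npy and Gal are also genes of injured sensory neurons, and in DRG they were at 373 ipsilaterally against 6.26 FPKM contralaterally and 232 ipsilaterally against 8.47 FPKM contralaterally. Of 9 sensory neuron markers, 5 were measured in cord, and all 5 were above 0, beside 51.6% of all measured features. None of the 5 is marked significant in the authors' deposited table. Prph, an intermediate filament gene, was at 7.997 ipsilaterally against 3.14 FPKM contralaterally. The neuropeptide gene Calca, at 2.91 ipsilaterally against 0.565 FPKM contralaterally, was measured only through the ipsilateral library, where it was high. Pax2, a transcription factor gene of most dorsal horn inhibitory neurons, was at 5.01 ipsilaterally against 3.29 FPKM contralaterally (0.49). Its fold interval of 0.709 to 3.27 in the authors' deposited table included 1, as did those of Lhx5 and Pnoc. Excitatory neuron markers had a median of -0.03, with 4 of 8 below 0, and their vesicular glutamate transporter gene Slc17a6 was at 68.4 ipsilaterally against 95.4 FPKM contralaterally (-0.47). The 9 markers of microglia and macrophages were all at least 2-fold higher, with a summed level of 399 FPKM ipsilaterally and 76.0 contralaterally. Astrocyte markers had a median of -0.07, with 4 of 8 below 0. Their sum was 2073 FPKM ipsilaterally and 1785 contralaterally, of which Gfap, a glial filament gene, made up 881 FPKM ipsilaterally and 469 contralaterally. Summed oligodendrocyte markers stood at 3484 ipsilaterally against 4563 contralaterally, and the low motor neuron markers at 5.99 ipsilaterally against 7.47 contralaterally. The part of these cell types in the lower inhibitory genes was not tested.

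In ipsilateral DRG the members were mixed. Of 16 measured members, 10 (62.5%) were below 0, beside 43.9% of the 13137 features measured in DRG, and 6 were above 0, beside 56.1%. The median log2 ratio was -0.21, beside 0.05 over all. At least 2-fold lower were 2 members, Glra1 and Slc6a11 (0.784% of all measured features were), and 0 were at least 2-fold higher (3.04% of all). Glra1 was measured in DRG only through the contralateral library, where it was high, so its place among the lower members follows from the filter. The authors' deposited table marks Glra1, Slc6a11 and Gabrb2 as lower and Gabrg1 as higher, beside 1.97% and 4.65% of measured features. Of the 15 members with an interval, 3 lay wholly below 1 and 2 wholly above 1, beside 6.35% and 10.1% of features.

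GABA-A subunits in DRG went in both directions. Gabrg1, the highest GABA-A subunit of the list in the ipsilateral library, was at 19.7 FPKM there and 11.1 contralaterally (0.78), a 1.78-fold difference with an interval of 1.24 to 2.56 and q = 0.0330 in the authors' deposited table. Gabrb2 was at 3.85 ipsilaterally against 6.96 FPKM contralaterally (-0.71), a fold of 0.553 with an interval of 0.379 to 0.807 and q = 0.0371 in the authors' deposited table. The other beta gene went the other way. Gabrb1 was at 1.80 ipsilaterally against 0.645 FPKM contralaterally (0.77), a 2.78-fold difference that is not marked significant (q = 0.128) in the authors' deposited table. It was measured in DRG only through the ipsilateral library, where it was high. Gabra2, the main alpha subunit of the list in DRG with 64.1% of the summed alpha FPKM ipsilaterally and 67.5% contralaterally, was at 9.89 ipsilaterally against 11.9 FPKM contralaterally (-0.24). Its ratio to Gabra3 was 4.21 on either side. Gabra3 was at 2.35 ipsilaterally against 2.82 FPKM contralaterally (-0.19) and Gabra5 at 3.04 ipsilaterally against 2.47 contralaterally (0.22).

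Of the other receptor genes in DRG, Glrb was at 45.9 ipsilaterally against 60.3 FPKM contralaterally (-0.39), Gabbr1 at 150 ipsilaterally against 176 contralaterally (-0.23) and Gabbr2 at 35.4 ipsilaterally against 46.1 contralaterally (-0.37). The interval of the fold included 1 for these 3 genes in the authors' deposited table. Slc12a2, the importer that keeps chloride high in sensory neurons, was at 48.4 ipsilaterally against 43.8 FPKM contralaterally (0.14), and its fold interval was 0.777 to 1.57 in the authors' deposited table. Gphn was at 18.8 ipsilaterally against 21.4 FPKM contralaterally (-0.18), Nlgn2 at 32.6 ipsilaterally against 26.2 contralaterally (0.31) and Abat at 12.5 ipsilaterally against 12.3 contralaterally (0.02), and their intervals also included 1. Over the same libraries, summed sensory neuron markers stood at 3284 FPKM ipsilaterally and 3834 contralaterally, with 8 of 9 below 0. Schwann cell markers stood at 3745 ipsilaterally against 3365 FPKM contralaterally, satellite glia markers at 980 ipsilaterally against 801 contralaterally, and microglia and macrophage markers at 143 ipsilaterally against 56.0 contralaterally. The part of these cells in the differences was not tested.

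Several of the members that were lower in ipsilateral DRG, among them both that were past 2-fold, have far higher levels in cord. Glra1 was listed at 0 in the ipsilateral library and stood at 4.76 FPKM in the contralateral one (-2.52, q = 0.00012) in the authors' deposited table. A listed 0 can be a failed estimate, and Glra1 overlaps a gene on the other strand. Slc6a11 was at 1.34 ipsilaterally against 5.16 FPKM contralaterally (-1.40), a fold of 0.260 with an interval of 0.159 to 0.425 and q = 8.89e-06 in the authors' deposited table. Slc6a9 was at 1.75 ipsilaterally against 3.28 FPKM contralaterally (-0.64), not marked significant (q = 0.164) in the authors' deposited table. Under 1 FPKM in both libraries, Slc12a5 was at 0.134 ipsilaterally against 0.944 FPKM contralaterally, and the authors' deposited table marks it as lower (q = 7.08e-05). Slc6a5 was at 0.0215 ipsilaterally against 0.523 FPKM contralaterally, Gad1 at 0.145 ipsilaterally against 0.328 contralaterally and Gad2 at 0.102 ipsilaterally against 0.0985 contralaterally. Slc32a1 stood at a listed 0 ipsilaterally, against 0.264 FPKM contralaterally.

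Other genes of cord neurons and glia were compared in the same DRG libraries. The list held 16 such genes. Of the 12 with at least 5 FPKM in contralateral cord, 9 were lower in ipsilateral DRG. Of the features measured in DRG, 43.9% were below 0. The 12 were chosen by cord level and not by the DRG filter, so these shares are from unlike sets. Only 5 of the 16 were measured in DRG, with 2 below 0 and 3 above 0. Zic2, under 5 FPKM in contralateral cord, was at 2.29 FPKM in ipsilateral DRG and 0.856 in contralateral DRG. It is marked higher in the authors' deposited table. Mog, a myelin protein gene of oligodendrocytes, had 0.0324 FPKM in ipsilateral DRG and 0.711 in contralateral DRG, Mobp at 0.0376 ipsilaterally against 0.998 contralaterally, and Opalin was listed at 0 ipsilaterally against 0.887 contralaterally. Slc1a2 was at 2.34 ipsilaterally against 7.98 FPKM contralaterally and the astrocyte water channel gene Aqp4 at 2.04 ipsilaterally against 5.10 contralaterally. In contralateral DRG, Mog stood at 0.463% and Mobp at 0.561% of their contralateral cord level, and Slc6a5 at 0.505%, Gad1 at 0.357%, Slc32a1 at 0.375% and Slc12a5 at 0.829%. All 12 genes stood between 0.328% and 11.7% in contralateral DRG, where Slc6a11 stood at 2.16%, Glra1 at 5.19% and Slc6a9 at 5.48%. The 3 of these 12 genes that were higher in ipsilateral DRG were Gjb6, Lmx1b and Zic1. Whether the contralateral DRG library holds cord RNA was not tested. It is the only contralateral DRG library, so no other one can be set beside it.

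**Figure D5:**
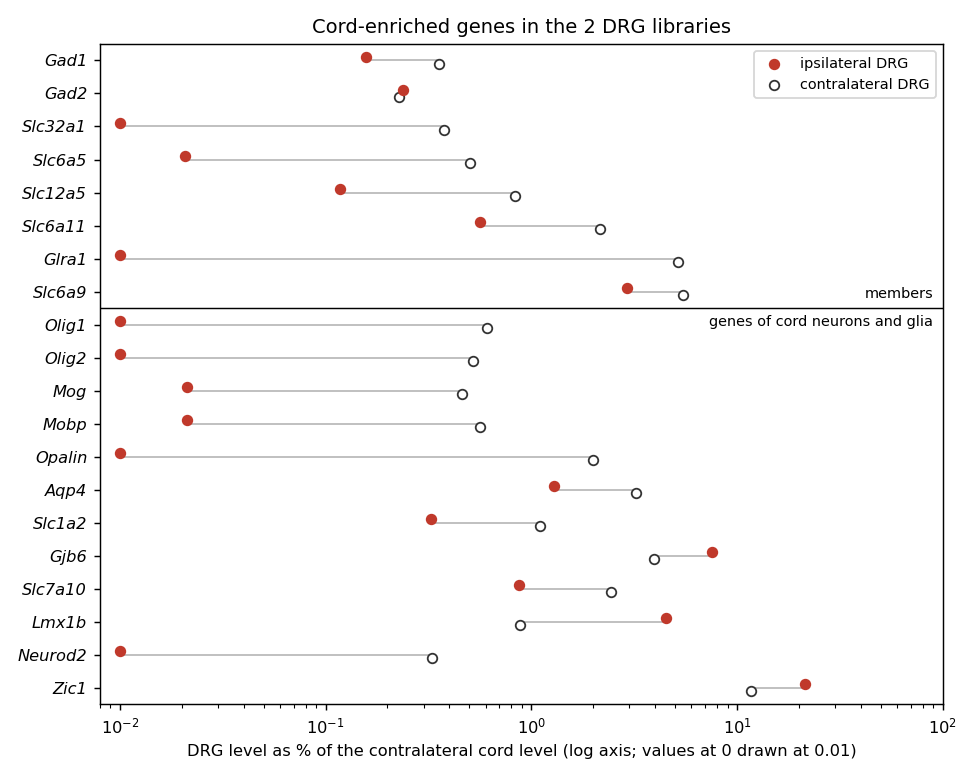
Level in ipsilateral (filled) and contralateral (open) DRG as a percentage of the contralateral cord level, on a log axis with values at 0 drawn at 0.01, for 8 members and 12 genes of cord neurons and glia. Of the 12 genes, 9 lie further left in ipsilateral DRG. The 8 members are a selection from those with at least 5 FPKM in contralateral cord, so their count on either side is no result. Members not drawn went both ways, with Gabrb1 further right and Gabra2 further left in ipsilateral DRG.

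Several GABA-A subunit genes lie beside each other in the genome, and neighbours did not differ alike. By the loci of the deposited tables (build mm9, where a locus can span overlapping genes), Gabrg1, Gabra2, Gabra4 and Gabrb1 lie in this order on chromosome 5 between 71142285 and 72528483. In cord all 4 were lower ipsilaterally, at log2 ratios of -0.61, -1.93, -0.45 and -0.57. In DRG the outer genes Gabrg1 and Gabrb1 were higher (0.78 and 0.77), Gabra2 was at -0.24, and Gabra4 was at 0.149 ipsilaterally against 0.428 FPKM contralaterally. On chromosome 7, Gabrg3 and Gabra5 (63979611 to 64765379) were at 0.04 and -0.61 in cord. On chromosome X, Gabra3 and Gabrq, listed between 69678014 and 70083883, were at -0.15 and 0.38 in cord.

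Promoter sequences were taken from RefSeq (build GRCm38.p6), which held 25 of the 29 members. The 250 bases before the start site are shown for 2 pairs, with each CG dinucleotide in capitals. The genes of a pair share a chromosome cluster or an enzymatic step, and each gene was lower in ipsilateral cord, by unlike amounts. Gabra2 (chr5:71095850-71096099, minus strand), at 0.245 times its contralateral level in ipsilateral cord, holds 18 CG. Gabrg1 (chr5:70842618-70842867, minus strand), at 0.632 times its contralateral level in ipsilateral cord, holds 1. In DRG, Gabrg1 is the member marked higher ipsilaterally in the authors' deposited table. Gad1 (chr2:70561879-70562128, plus strand) holds 17 and Gad2 (chr2:22622077-22622326, plus strand) holds 13.
Gabra2: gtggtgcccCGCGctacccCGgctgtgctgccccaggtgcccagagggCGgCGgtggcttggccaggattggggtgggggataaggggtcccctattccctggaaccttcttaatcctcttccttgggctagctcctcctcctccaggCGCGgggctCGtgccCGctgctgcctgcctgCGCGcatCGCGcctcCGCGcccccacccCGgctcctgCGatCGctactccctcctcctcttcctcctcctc
Gabrg1: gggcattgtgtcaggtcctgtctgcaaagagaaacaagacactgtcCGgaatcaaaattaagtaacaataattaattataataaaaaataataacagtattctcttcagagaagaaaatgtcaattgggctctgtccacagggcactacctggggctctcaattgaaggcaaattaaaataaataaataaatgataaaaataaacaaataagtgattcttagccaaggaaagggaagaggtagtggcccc
Gad1: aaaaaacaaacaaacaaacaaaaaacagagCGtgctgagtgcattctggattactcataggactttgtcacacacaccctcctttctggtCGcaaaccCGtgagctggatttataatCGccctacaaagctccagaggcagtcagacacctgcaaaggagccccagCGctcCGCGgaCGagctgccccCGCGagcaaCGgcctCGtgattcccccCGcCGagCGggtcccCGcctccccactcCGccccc
Gad2: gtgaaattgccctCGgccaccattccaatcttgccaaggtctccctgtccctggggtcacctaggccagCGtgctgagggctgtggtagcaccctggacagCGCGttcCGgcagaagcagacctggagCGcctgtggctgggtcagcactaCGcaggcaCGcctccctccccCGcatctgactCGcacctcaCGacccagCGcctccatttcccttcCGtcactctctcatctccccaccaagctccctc
Of all 32851 promoters, 21.7% hold as many CG as Gabra2 or more, 23.5% as many as Gad1 and 31.5% as many as Gad2, while 18.8% hold as few as Gabrg1. The median was 11 CG over the 33 promoters of members and 6 over all promoters. The AP-1 motif TGANTCA, which reads the same on both strands, was found in the promoters of 2 members, Slc12a5 and Slc6a5 (2 of the 33 promoters), and in 6.75% of all promoters. These are matches of letters and no measure of binding.

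Genes that work beside the members were described from a list of 62 partners: receptor trafficking proteins, GABA-B auxiliary subunits, enzymes and carriers that supply GABA and glycine, chloride regulators and further subunits. In cord, 21 of 53 measured partners were below 0 (39.6%), with a median of 0.11, beside 80.8% and -0.35 for the members. Over all features measured in cord, 48.4% were below 0 and the median was 0.02. Of the partners, 1 was at least 2-fold higher in cord and 0 at least 2-fold lower, beside 4.46% and 1.64% of all measured features. Shmt1, a serine hydroxymethyltransferase that makes glycine, was at 2.11 ipsilaterally against 0.262 FPKM contralaterally (1.3) and is marked higher in the authors' deposited table. Shmt1 was measured in cord only through the ipsilateral library, where it was high, so its place among the higher partners follows from the filter. Hap1, a trafficking partner of GABA-A receptors, was at 112 ipsilaterally against 63.0 FPKM contralaterally (0.82) and marked higher, and Ubqln1, a ubiquitin-like protein that stabilises these receptors, at 59.1 ipsilaterally against 89.2 contralaterally (-0.59) and marked lower in the authors' deposited table. Among the 6 partners with the largest log2 ratios in cord, the others were Gabrr2 (0.89), Amt (0.80), Kctd16 (-0.73) and Wnk2 (0.66), none of them marked there. Gabrr2 encodes a rho subunit, Amt an enzyme of glycine cleavage, Kctd16 a GABA-B auxiliary subunit and Wnk2 a kinase that regulates chloride carriers. Gabrr2, at 1.18 ipsilaterally against 0.176 FPKM contralaterally, was also measured in cord only through the ipsilateral library. After GC centring, the partner median in cord was 0.03.

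In DRG, 16 of 48 measured partners were below 0 (33.3%), beside 43.9% of all features measured in DRG. Their median was 0.07, close to the 0.05 over all measured features. The 1 partner past 2-fold was Slc6a13, the GABA transporter GAT2 found in meninges and epithelia, at 4.23 FPKM ipsilaterally and 1.57 contralaterally (1.03) and marked higher in the authors' deposited table. Of all features measured in DRG, 3.04% were at least 2-fold higher. Glul, which makes glutamine in glia, was at 323 ipsilaterally against 179 FPKM contralaterally (0.85), and Mdga1, a regulator of neuroligin 2, at 11.1 ipsilaterally against 6.29 contralaterally (0.73). Slc38a1, a neuronal glutamine carrier gene, was at 25.2 ipsilaterally against 18.1 FPKM contralaterally (0.46), and Slitrk3, an adhesion protein of inhibitory synapses, at 9.69 ipsilaterally against 17.8 contralaterally (-0.81). The authors' deposited table marks these 4 as well, Slitrk3 as the lower one. Shmt2 (0.77) and Kctd12 (0.66) completed the 6 largest ratios in DRG and are not marked there. None of the measured chloride regulators in the list was past 2-fold on this scale in either tissue, their log2 ratios running between -0.37 and 0.47 in DRG and between -0.57 and 0.66 in cord.

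Of the 16 members measured in both tissues, 8 were below 0 in both, beside 22.1% of the 12229 features measured in both. Above 0 in DRG and below 0 in cord were 5 members, beside 26.5%, and 2 were the reverse, beside 22%. Nlgn2 alone, 1 member, was above 0 in both, beside 29.4%. The 5 were Gabra5, Gabrb1, Gabrg1, Slc12a2 and Abat. Only Gabrg1, of 15 members with intervals in both tissues, had intervals on opposite sides of 1, beside 1.23% of 12074 features. No member was 2-fold higher in one tissue and 2-fold lower in the other.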

How the data were processed

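The labels' protocols name a QIAGEN RNeasy kit for RNA and Epicentre ScriptSeq for libraries. TopHat 1.4.0, Cuffdiff 1.3.0 and build mm9 are listed per the submitters' processing notes; annotation and strand setting are not given in the sources used here, so reads of a gene and an antisense partner cannot be told apart. By GENCODE M21, exons of 7 members, Glra1 among them, overlap a gene on the other strand. The authors deposited 1 table per tissue with FPKM values, p-values, q-values and a test statistic, per the file headers. Read depth is unknown.

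The standard error is the authors' deposited log2 fold change over their test statistic, and a two-sided normal p of that statistic was within 0.001 of the deposited p-values for 100% of features above 0 in both libraries. Ratios used a pseudocount of 1 FPKM, within a table, and were tested on simulated data. GC content came from the longest protein-coding transcript in GENCODE M21. The members and lists were chosen with earlier results of these data known. Genes named are all measured members and, per tissue, the 6 partners with the largest log2 ratio; partners marked by the authors, markers and cord genes were named after their values were seen. Ncmap and Wnk3, of the lists, were not analysed here. Alternatives were other pseudocounts, filters, scalings, the marks of the authors and GC centring. Other columns of per-sample values numbered 0. Python 3.11.15 and pandas 2.3.3 were used.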

Additional observations from a re-analysis of the deposited data

Results flagged for a closer look

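Gabrg1, the gamma1 subunit gene of the GABA-A receptor, was on opposite sides of 1 in the tissues, with a log2 ratio of 0.78 in DRG and -0.61 in dorsal cord, and its intervals from the authors' deposited table left out 1 in both (1.24 to 2.56 in DRG, 0.433 to 0.923 in cord). This rule was added after seeing the data, 1 of 15 members with both intervals met it, and so did 1.23% of 12074 features. The authors' deposited table marks Gabrg1 as significant in DRG (q = 0.0330) but not in cord (q = 0.136). With GC content centred, its log2 ratio was 0.68 in DRG and -0.35 in cord. The difference between tissues was not tested, since each tissue rests on 1 library a side.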

How the results depend on the processing

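The median log2 ratio of the members stayed below 0 in both tissues under all alternatives run, between -0.26 and -0.18 in DRG and between -0.38 and -0.31 in cord. The counts past 2-fold are small and moved. In DRG the 2 lower members became 1 at a pseudocount of 3 FPKM or a filter at 5 FPKM, and the count of higher members went from 0 to 1 at a pseudocount of 0.1 FPKM (Gabrb1) or by the mark in the authors' deposited table (Gabrg1). In cord the 1 lower member became 3 at a pseudocount of 0.1 FPKM, with the median rescaled to 0, with upper quartiles matched, or by the mark in the authors' deposited table, and 2 after GC centring, which was added after seeing the data. Gad1 and Glra3 lie just short of 2-fold, at -0.99 and -0.98. Glra1 in DRG ran between -5.60 and -1.37 and Slc6a11 between -1.87 and -0.91 over the pseudocounts of 0.1 and 3 FPKM. Rescaling changed the sign of Abat in DRG and of Gabbr1 and Gabbr2 in cord, whose log2 ratios were at most 0.02 in size, and of no other member. GC centring changed the sign of Abat in DRG and, in cord, of Gabra3, Glra2, Gabbr1, Gabbr2 and Nlgn2. No paired analysis was possible because each group is 1 library, and leaving out a library was not possible for the same reason.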
